A study of Mus musculus with 6 samples.

Results

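The β-catenin destruction complex was represented by 10 genes out of the 24063 gene symbols counted in the files: the scaffolds Apc, Apc2 and Axin1, the kinases Gsk3a, Gsk3b and Csnk1a1, the ubiquitin ligase adaptor Btrc, the substrate Ctnnb1, and the Dishevelled genes Dvl1 and Dvl2, whose proteins relay the Wnt signal to the complex. The genes were chosen by name, with earlier results of these data known. Where a symbol had several transcript rows, the row counted most on average in the 6 samples stood for the gene. Of these genes, Axin1 had 2 rows, Btrc 4 and Ctnnb1 2.

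In a cell without Wnt signal, the complex keeps β-catenin low: Axin1 and Apc hold β-catenin, casein kinase 1α (the product of Csnk1a1) and then GSK3 phosphorylate its amino-terminal end, and the SCF ubiquitin ligase that carries Btrc marks it for the proteasome. Wnt ligands act through Dishevelled proteins, which draw Axin to the membrane and stop this degradation. Where APC is lost, β-catenin is free to enter the nucleus and act with TCF/LEF factors on its target genes, which include the feedback inhibitors Axin2 and Nkd1. All of this control acts on protein, whereas the data here are RNA levels.

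Penile tumors of 3 SA mice were compared with 3 samples of normal penile epithelium, taken from wild type (WT) mice of the same age. The SA tumors came from 5-month-old males of the genotype PB-Cre+ Smad4L/L ApcL/L, in which squamous cell carcinoma forms spontaneously and no carcinogen is given. PB-Cre4 expresses Cre recombinase under an androgen-responsive promoter, so that both floxed genes are deleted in epithelial cells that express the androgen receptor, while stroma, vessels and immune cells of the same tumor keep them. The WT mice were C57BL/6 without Cre or floxed alleles, the strain background of the SA mice is not given in the sources used here, and genotype, strain and tumor state cannot be told apart. The methods of the study name 3 SA mice as the source of the tumors but give no number of WT mice. A figure legend of the study gives n = 3 penile samples for each genotype. The p-values measure the spread between these samples.

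Libraries held between 23828283 and 32871142 counts over the rows used, except SA replicate 3 with 110509147, 4.42 times the median of the others. Values are given as CPM after TMM scaling, that is, counts brought to a common library total and corrected for composition. Where genes are compared with each other, they are given as TPM, in which counts are first divided by transcript length and then brought to a common total. A count of 3, taken as the floor, was worth 0.0244 to 0.137 CPM. Marker genes differed in both directions. The summed CPM of 8 keratinocyte markers was 14519 to 16665 in SA tumors and 30163 to 32597 in WT penis, with 5 of the 8 lower, Epcam higher (log2 fold change 2.35, adjusted p = 2.4e-05) and Krt14 and Cdh1 in neither direction. The sum of 6 smooth muscle markers was 1517 to 2015 in WT and 35.3 to 124 in SA, with all 6 lower. Of 7 leukocyte markers, 2 were higher in SA, S100a8 and S100a9, and the sum of the list was 1524 to 2612 against 144 to 229. Without these 2 genes the sums overlapped, at 70.6 to 211 CPM in SA and 89.2 to 112 in WT, a split made after the values were seen. Within this remainder, Ptprc and Itgam lay above all WT samples in every SA tumor, while Cd68, Csf1r and Cd3e overlapped. Both missed the threshold of 0.01 in edgeR (adjusted p = 0.0187 for Ptprc and 0.0304 for Itgam). By mass cytometry, the study reports a larger fraction of immune cells in SA tumors than in penis of littermates without Cre. In bulk tissue, fewer cells of a type and less RNA per cell cannot be told apart, and the part of these cell mixtures in the results below was not tested.

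The sequence at the centre of this pathway is the short stretch of β-catenin that the complex phosphorylates, shown here because every member acts on it directly or sets the access to it. On the GRCm38 build it lies at chr9:120950602-120950643 on the plus strand, within exon 3 of 15 of Ctnnb1 in GENCODE M21, and it is coding sequence for codons 32 to 45. Capitals mark the 4 codons that are phosphorylated, namely codon 45, the priming site of Csnk1a1, and codons 41, 37 and 33, which GSK3 then phosphorylates. Btrc recognizes the phosphorylated codons 33 and 37.
Ctnnb1 codons 32 to 45: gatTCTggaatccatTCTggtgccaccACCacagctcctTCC

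The deleted genes were read first. Apc, the main scaffold, rose in SA tumors although it carries the floxed alleles. Its CPM was 253, 194 and 197 in the 3 SA tumors and 62.5, 85.3 and 91.1 in the 3 WT penises. Every SA tumor lay above every WT sample, and the means were 215 ± 33.4 and 79.6 ± 15.1 (SD, n = 3 each). The log2 fold change was 1.43 (SE 0.168, edgeR quasi-likelihood test, adjusted p = 0.000185), a fold of 2.69 with a 95% interval of 2.06 to 3.52. Smad4, the common mediator of TGFβ signals and the second floxed gene, fell. It stood at 36.6, 36.1 and 46.1 CPM in SA against 61.2, 69.7 and 72.5 in WT, and the groups did not overlap. Its log2 fold change was -0.77 (SE 0.128, adjusted p = 0.00114), and under scaling by library totals alone it was -0.49 and missed the threshold (adjusted p = 0.0152). Both genes lie on chromosome 18. The counts cover whole transcripts and the exons between the loxP sites are not given in the sources used here, so neither total checks the deletion, and cells without Cre also contribute to it.

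A gene was counted as higher or lower at a Benjamini-Hochberg adjusted p under 0.01 over all 16336 genes tested. All 10 members passed the filter on low counts. Of the 10, 2 were higher (Apc and Ctnnb1), 0 were lower and 8 passed in neither direction, so that 20% were called, while 37.6% of all genes tested were called. By direction, 20.1% of all genes were higher and 17.5% were lower. The split of all called genes was 53.4% higher, and under library totals alone it was 74.4% higher with a median log2 fold change over all genes of 0.31 instead of 0.03. For lower members, edgeR gave 2 at an unadjusted p under 0.05 (Btrc and Dvl1), and DESeq2 and limma-voom gave 0 at the adjusted threshold. Such p-values were common in these data. Apc2, with an unadjusted edgeR p of 0.0506, ranked 9641 by p among the 16336 genes tested. With the second threshold of the study, an absolute log2 fold change of at least 2, 0 members passed with edgeR, DESeq2 or limma-voom, also with an unadjusted p under 0.05, while 13.0% of all genes passed, 9.41% as higher and 3.59% as lower. The median log2 fold change of the members was 0.01, beside 0.03 over all genes tested.

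**Figure D1:**
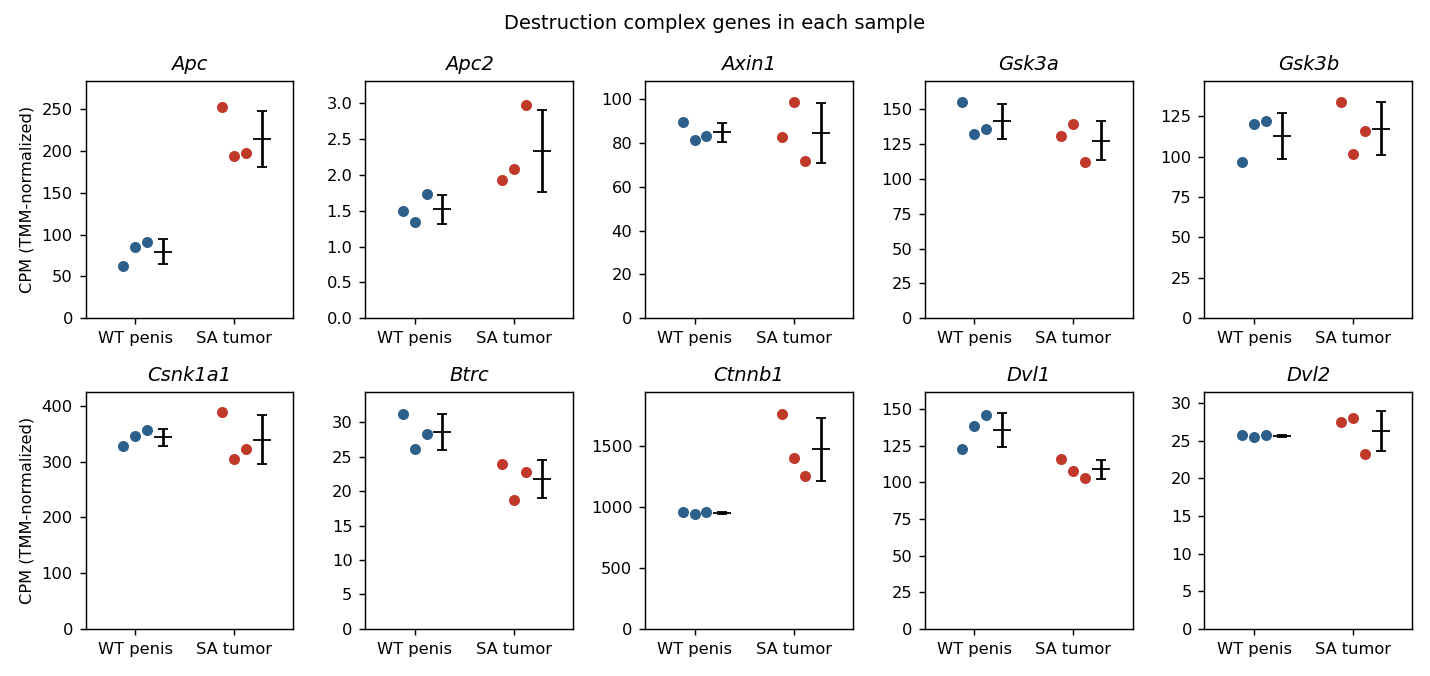
CPM after TMM scaling of each of the 10 genes (vertical axis, starting at 0, 1 panel a gene) in 3 WT penises (blue) and 3 SA tumors (red), with the mean and SD as a bar beside the points. The SA tumors lie above all WT samples for Apc, Apc2 and Ctnnb1 and below them for Btrc and Dvl1, and the groups overlap for the other 5.

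The groups did not overlap for 5 of the 10 members, with SA above WT in 3 and below in 2. Such separation was common in these data, since 63.4% of all genes tested did not overlap.

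Apc2, the paralog of Apc that is mostly known from neurons, had the lowest level of the members. Its CPM was 1.93, 2.09 and 2.98 in SA and 1.49, 1.34 and 1.73 in WT. These values rest on 52, 63 and 367 reads in SA and 33, 40 and 38 in WT, and the SA tumors lay above the WT samples without overlap. The fold was 1.56 with an interval of 0.999 to 2.43 (log2 fold change 0.64, SE 0.280, adjusted p = 0.0857), which missed the threshold. Of the 7 neuron markers tested, 5 were higher in SA, and Stmn2 and Nefm were called in neither direction. The sum of the neuron list was 154 to 211 CPM in SA against 14.1 to 15.9 in WT. Tubb3 alone held 113 to 174 CPM of it in SA and 4.24 to 6.69 in WT. Among 5 Schwann cell markers, 3 were lower, with sums of 53.3 to 77.1 against 207 to 245. The part of these cell types in the Apc2 value was not tested. Apc2 (row NM_011789) lies at chr10:80295977-80318263, and its exons overlap 2310011J03Rik on the opposite strand.

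Axin1, the scaffold whose amount limits the assembly of the complex in many cells, had almost the same mean in both groups. It was at 82.8, 98.8 and 71.8 CPM in SA tumors and 89.6, 81.4 and 83.3 in WT penis. The SA values spanned the WT values on both sides, with means of 84.5 ± 13.6 and 84.8 ± 4.32 (SD, n = 3). The log2 fold change was -0.01 with a 95% interval of -0.30 to 0.28 (adjusted p = 0.973), and it turned positive, to 0.28, under library totals alone, which moved the median of all genes by about as much. The interval leaves room for folds from 0.814 to 1.22. Axin1 lies at chr17:26138688-26195811.

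Ctnnb1, which encodes β-catenin itself, rose in SA tumors and was the member with the highest level. Its CPM was 1758, 1403 and 1252 in SA and 954, 944 and 959 in WT. The 3 WT samples were nearly equal, with a coefficient of variation of 0.797% where counting alone gives 0.657%, whereas the SA tumors spread by 17.7%. The fold was 1.54 with an interval of 1.24 to 1.92 (log2 fold change 0.63, SE 0.139, adjusted p = 0.00536). The call passed in only 1 of the 6 fits that left out 1 sample. Such fits rest on fewer samples, so a lost call need not come from the library left out. It was lost without SA replicate 1, the tumor with the highest value (log2 fold change 0.47, adjusted p = 0.0112), and without SA replicate 2 (0.66, adjusted p = 0.0134). It was also lost without WT replicate 1 (0.62, adjusted p = 0.0168), WT replicate 2 (0.60, adjusted p = 0.0321) or WT replicate 3 (0.61, adjusted p = 0.0203). Without SA replicate 3 it passed (0.73, adjusted p = 0.00246), and the direction was the same in all 6 fits.

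The tumor with the highest Ctnnb1, SA replicate 1, also had the lowest summed level of 6 fibroblast markers, 1285 CPM against 3705 and 4763 in the other SA tumors and 6073 to 6355 in WT. Between the groups, 1 of the 6 was lower (Dcn), 0 were higher and 5 passed in neither direction. Pdgfra had the higher mean in SA, 173 ± 94.7 against 81.5 ± 0.209 CPM (SD, n = 3). Among the SA tumors, replicate 1 also had the lowest sums of smooth muscle, endothelial and Schwann cell markers, and the highest neuron sum. Its keratinocyte sum, 15196 CPM, lay between 14519 in SA replicate 2 and 16665 in SA replicate 3, and its leukocyte sum lay between theirs too. Whether this mixture bears on Ctnnb1 was not tested. Ctnnb1 (row NM_007614) lies at chr9:120929216-120960507, and its exons overlap those of Ulk4 on the opposite strand.

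The kinase genes showed no call in either direction. Csnk1a1, the priming kinase, was at 389, 305 and 323 CPM in SA and 327, 346 and 357 in WT. Its means of 339 ± 44.2 and 344 ± 15.3 (SD, n = 3) overlapped, and the log2 fold change was -0.02 with an interval of -0.28 to 0.25 (adjusted p = 0.906). Under library totals alone it was 0.27 and still not past the threshold. Csnk1a1 lies on chromosome 18, as Apc and Smad4 do.

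Gsk3a, one of the GSK3 genes that act on β-catenin, was at 131, 139 and 112 CPM in SA and 155, 132 and 136 in WT. The lowest value was an SA tumor and the highest a WT sample, with overlap between. Its log2 fold change of -0.15 had an interval of -0.41 to 0.11 (adjusted p = 0.304), and the sign changed under library totals alone, to 0.14. Gsk3b was at 134, 102 and 116 CPM in SA and 96.5, 120 and 122 in WT. The lowest value was WT replicate 1 and the highest SA replicate 1, while the other SA tumors lay below the other WT samples, so that the groups overlapped. The log2 fold change was 0.05 with an interval of -0.26 to 0.37 (adjusted p = 0.762). For Csnk1a1, Gsk3a and Gsk3b the intervals in folds ran from 0.821 to 1.19, from 0.751 to 1.082 and from 0.837 to 1.29. Gsk3a lies at chr7:25228258-25237851 on the minus strand and Gsk3b at chr16:38089001-38246084.

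Btrc encodes the F-box protein β-TrCP, which binds phosphorylated β-catenin. It was at 23.9, 18.7 and 22.8 CPM in SA tumors and 31.2, 26.1 and 28.3 in WT penis. All SA values lay below all WT values, with means of 21.8 ± 2.75 and 28.6 ± 2.57 (SD, n = 3). The log2 fold change of -0.39 (SE 0.133, interval -0.69 to -0.08) missed the threshold (adjusted p = 0.0373). Btrc lies at chr19:45363734-45530013.

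Dvl1 was at 116, 108 and 103 CPM in SA and 123, 138 and 146 in WT. The groups did not overlap, and the log2 fold change of -0.32 (SE 0.101, interval -0.55 to -0.09) also missed the threshold (adjusted p = 0.0265). Dvl2, its paralog, was at 27.5, 28.01 and 23.2 CPM in SA and 25.8, 25.5 and 25.7 in WT. The SA tumors lay on both sides of the 3 nearly equal WT values, and the log2 fold change was 0.03 with an interval of -0.23 to 0.29 (adjusted p = 0.843). Dvl1 lies at chr4:155847402-155859303 and Dvl2 at chr11:70000595-70012301. Exons of Dvl1 overlap Tas1r3 and those of Dvl2 overlap Acadvl on the opposite strand, as those of Gsk3a do 9130221H12Rik and those of Btrc Gm6807. The strand setting of the counting is not given in the sources used here, so the share of reads from such genes in the totals of these 4 members, of Apc2 and of Ctnnb1 was not tested.

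**Figure D2:**
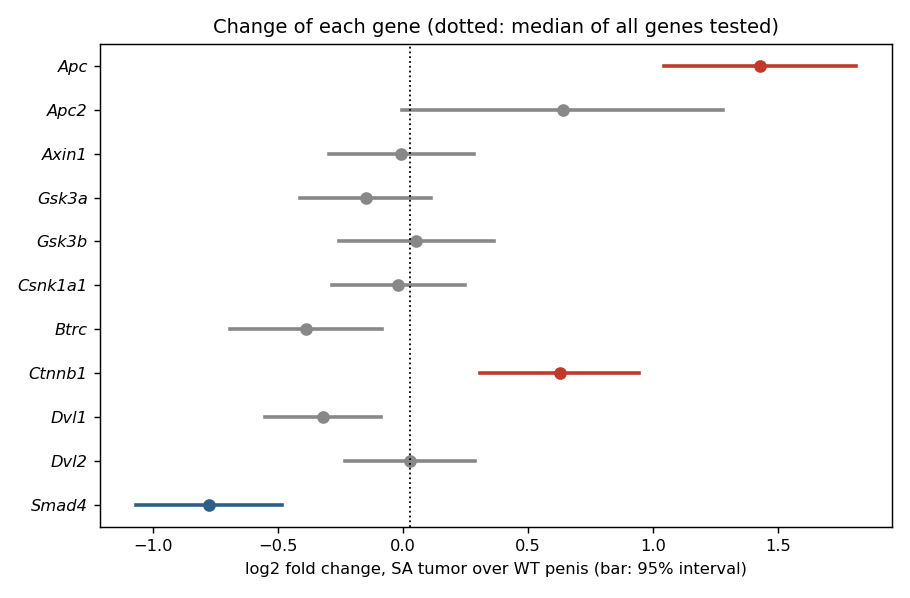
Log2 fold change of SA tumor over WT penis (horizontal axis) for the 10 genes and Smad4, as points with 95% intervals from the edgeR fit of 3 against 3 samples. Red marks higher, blue lower at an adjusted p under 0.01 and grey neither, and the dotted line is the median over all genes tested, 0.03.

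Across the 19 other ways of fitting the data, Apc passed the threshold in 19, with log2 fold changes from 1.23 to 1.71. Ctnnb1 passed in 14 of 19, with values from 0.47 to 0.91. The other 8 members passed in 0 of 19, edgeR, DESeq2 and limma-voom included.

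Per length, the levels of the members within a group ran over a wide range. In WT penis, Ctnnb1 led with 361 ± 22.6 TPM, followed by Csnk1a1 with 235 ± 24.5 and Gsk3a with 85.5 ± 3.31 (SD, n = 3). Dvl1 stood at 55.9 ± 8.10, Axin1 at 30.7 ± 0.940, Gsk3b at 18.8 ± 3.42 and Dvl2 at 12.01 ± 0.697 TPM. Apc was the eighth at 8.85 ± 2.15 TPM, above Btrc at 6.18 ± 0.372 and Apc2 at 0.230 ± 0.0390. In this order, Apc and Btrc were the only neighbours whose ranges touched, since the lowest Apc value, 6.43 TPM, lay just under the highest Btrc value, 6.46.

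In SA tumors, the first 5 places were the same, with Ctnnb1 at 720 ± 129, Csnk1a1 at 299 ± 43.5, Gsk3a at 99.8 ± 8.31, Dvl1 at 57.6 ± 3.66 and Axin1 at 39.5 ± 5.04 TPM. Apc moved from the eighth to the sixth place, at 30.6 ± 5.10 TPM, ahead of Gsk3b at 25.1 ± 3.996 and Dvl2 at 15.8 ± 1.24. The last places were again held by Btrc at 6.14 ± 0.937 and Apc2 at 0.458 ± 0.123 TPM. The ranges of Axin1 and Apc overlapped, as did those of Apc and Gsk3b, while the lowest Axin1 value, 34.7 TPM, lay above the highest Gsk3b value, 28.9. Within each of the 3 tumors, Axin1 was above Apc and Apc above Gsk3b. TPM is not corrected for composition, and only the order within a group is read from it here.

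Ratios of 2 genes in the same sample do not depend on how libraries are scaled, and 6 pairs were compared. Differences between samples that go with transcript length do not cancel where the 2 rows differ in length. Rows above 10 kilobases were low in SA replicate 2 and WT replicate 1 (median log2 deviation -0.16 and -0.20). The rows of Gsk3a and Gsk3b have 2259 and 8298 bases, those of Ctnnb1 and Apc 3623 and 12449. The part of length in the ratios was not tested. Between the GSK3 paralogs, Gsk3a TPM over Gsk3b TPM was 3.59, 5.04 and 3.53 in SA and 5.92, 4.04 and 4.08 in WT. These ranges overlapped (difference of mean log2 ratios -0.20, exact two-sided permutation p = 0.5). The ratio of Dvl1 to Dvl2 was 3.68, 3.37 and 3.87 in SA and 4.18, 4.75 and 4.98 in WT, a difference of -0.35 without overlap. Fbxw11, the paralog of Btrc that serves the same ligase, stood to Btrc as 5.34, 6.02 and 5.08 in SA and 3.56, 4.46 and 4.05 in WT, a difference of 0.45.

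For substrate and scaffolds, the ratio depended on which scaffold was taken. Ctnnb1 over Axin1 was 22.2, 14.8 and 18.2 in SA tumors and 11.1, 12.1 and 12.01 in WT penis, so that substrate RNA was higher relative to Axin1 in every tumor (difference of mean log2 ratios 0.63). Ctnnb1 over Apc was 23.9, 24.9 and 21.8 in SA and 52.4, 38.0 and 36.2 in WT, so that it was lower relative to Apc in every tumor (difference -0.83). Apc2 over Apc was 0.0105, 0.0148 and 0.0208 in SA and 0.0327, 0.0215 and 0.0261 in WT (difference -0.84). The SA and WT ranges of 5 of the 6 ratios did not overlap, and each of these had an exact permutation p of 0.1, the smallest that 3 against 3 samples can give, and 0.12 after Benjamini-Hochberg adjustment over the 6 pairs. The design could therefore not reach 0.05 for any single ratio. Ratios of other gene pairs were not taken as a background, and 63.4% of all single genes tested did not overlap.

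**Figure D3:**
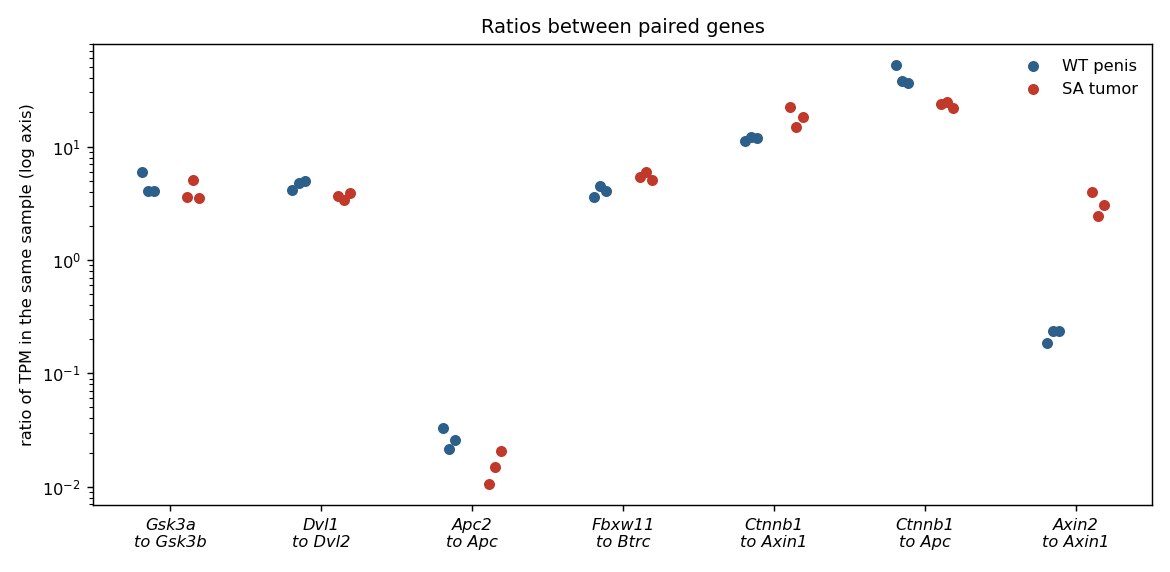
Ratio of the TPM of 2 genes in the same sample (vertical log axis) for the 6 pairs compared and for Axin2 to Axin1, with 3 WT penises in blue and 3 SA tumors in red. Ctnnb1 to Axin1 lies higher in SA and Ctnnb1 to Apc lower, Gsk3a to Gsk3b overlaps, and Axin2 to Axin1 goes from 0.184 to 0.235 in WT to 2.46 to 3.94 in SA.

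Transcript length moved with the comparison, and the rows of Apc (NM_007462, 12449 bases), Apc2 (9074 bases) and Gsk3b (8298 bases) are among the long ones. Over the 271 genes with rows above 10 kilobases, the median log2 fold change was 0.29, with 31.0% higher and 8.49% lower, and over the 1487 genes below 1 kilobase it was -0.10. Of these 271 genes, 44, or 16.2%, had a log2 fold change at or above that of Apc. The long rows deviated most in WT replicate 1, by -0.20 in median log2 from the mean of their group. With an offset for length in the fit, an alternative chosen after seeing the data, the log2 fold change of Apc was 1.23 (adjusted p = 8.3e-05) and that of Gsk3b went from 0.05 to -0.09 without a call. Without WT replicate 1 it was 1.27 for Apc.

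**Figure D4:**
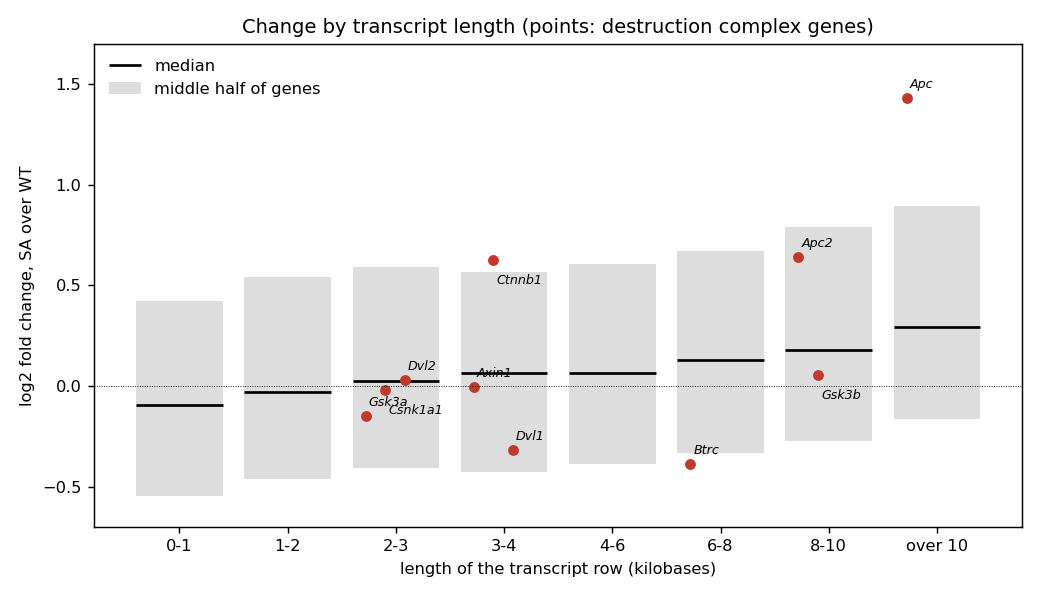
Log2 fold change of SA over WT (vertical axis) by length class of the transcript row in kilobases (horizontal axis), with the median of all genes tested in the class as a line, the range from the lower to the upper quartile in grey and the 10 destruction complex genes as points, spread sideways within a class for legibility. The class medians go from -0.10 below 1 kilobase to 0.29 above 10, and Apc lies above the quartile range of its class.

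Promoter windows were read to see whether member genes carry CTTTGA, a form of the TCF/LEF core motif, through which β-catenin acts on its targets. Other forms of the motif were not searched, so a window without a match may hold another form. The RefSeq table for GRCm38.p6 gave the 250 bases before the start for 6 of the 10 members (Apc2, Ctnnb1, Dvl1, Dvl2, Gsk3a and Gsk3b) in 10 windows, and the motif was searched on both strands. It was present in 2 of these 6 genes, Gsk3a and Gsk3b, while 15.8% of all 27018 genes in the table and 13.8% of the 32841 windows held it. In both genes it lay on the reverse strand of the gene, where it reads TCAAAG, shown in capitals below, beginning 157 bases before the start of Gsk3a and 77 bases before that of Gsk3b. Neither gene was called. Neither of the 2 windows of Ctnnb1, the called member among the 6, held these letters, nor did that of Axin2, and the first Ctnnb1 window is printed for comparison. A match is a run of letters and not a bound site, and the Axin2 window shows that a β-catenin target can lack a match.
Gsk3a, chr7:25237852-25238101, minus strand: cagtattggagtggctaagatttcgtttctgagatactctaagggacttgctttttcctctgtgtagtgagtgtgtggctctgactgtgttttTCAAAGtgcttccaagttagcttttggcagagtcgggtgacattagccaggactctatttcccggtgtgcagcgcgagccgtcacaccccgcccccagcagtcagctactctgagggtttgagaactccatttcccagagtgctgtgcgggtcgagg
Gsk3b, chr16:38088751-38089000, plus strand: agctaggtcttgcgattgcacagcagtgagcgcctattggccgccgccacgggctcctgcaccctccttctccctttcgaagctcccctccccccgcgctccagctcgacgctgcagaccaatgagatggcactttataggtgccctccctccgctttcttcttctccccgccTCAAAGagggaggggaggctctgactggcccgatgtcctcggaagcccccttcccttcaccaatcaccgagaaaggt
Ctnnb1, chr9:120933150-120933399, plus strand: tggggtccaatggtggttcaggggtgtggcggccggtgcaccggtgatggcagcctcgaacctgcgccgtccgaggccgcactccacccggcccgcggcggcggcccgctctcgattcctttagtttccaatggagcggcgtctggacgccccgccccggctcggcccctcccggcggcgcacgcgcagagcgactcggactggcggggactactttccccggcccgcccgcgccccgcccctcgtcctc

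The other genes of the pathway were read as 6 lists, beside a background of 37.6% of all genes called. Of the 4 tested scaffold partners and APC-binding proteins, 2 were higher and 1 lower, with a median log2 fold change of 2.06 (Amer3 had too few counts to be tested). Axin2, the inducible homolog of Axin1, was at 368, 273 and 245 CPM in SA and 18.6, 21.5 and 22.1 in WT, a log2 fold change of 3.83 (SE 0.175, adjusted p = 2.2e-06). The lowest tumor lay far above the highest WT sample, whereas Axin1 had a log2 fold change of -0.01. The TPM ratio of Axin2 to Axin1, chosen after its values were seen and given without a test, was 3.94, 2.46 and 3.03 in SA and 0.184, 0.234 and 0.235 in WT. Axin2 was thus below Axin1 in each WT penis and above it in each tumor.

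Amer2, a membrane protein that binds APC, rose from 0.812 ± 0.140 to 10.9 ± 1.55 CPM (SD, n = 3, log2 fold change 3.74, adjusted p = 6.5e-06). Ctnnbip1, which encodes ICAT, an inhibitor of the binding of β-catenin to TCF factors, fell from 137 ± 19.6 to 59.8 ± 9.29 CPM (log2 fold change -1.20, adjusted p = 0.00024).

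Of 17 casein kinase and PP2A genes, 2 were higher, 2 lower and 13 neither, with a median log2 fold change of 0.10. Csnk1e, a casein kinase 1 that acts on Dishevelled, rose from 90.5 ± 4.36 to 158 ± 24.6 CPM (log2 fold change 0.80, adjusted p = 0.000928). Ppp2r5b and Ppp2r5a are both B56 regulatory subunits of the phosphatase PP2A and went in opposite directions. Ppp2r5b rose from 34.8 ± 1.65 to 56.9 ± 10.9 CPM (log2 fold change 0.71, adjusted p = 0.00371), and Ppp2r5a fell from 196 ± 5.65 to 113 ± 5.48 (log2 fold change -0.80, adjusted p = 0.000126). The Ppp2r5b call was lost without SA replicate 2 (0.70, adjusted p = 0.0139) and without WT replicate 1 (0.66, adjusted p = 0.0178), 2 (0.71, adjusted p = 0.0143) or 3 (0.70, adjusted p = 0.0133). Without SA replicate 2 or any 1 WT replicate, 1 of the 17 was higher, and without SA replicate 3, 4 were. Csnk2b, the regulatory subunit of casein kinase 2, fell from 154 ± 11.5 to 102 ± 10.3 CPM (log2 fold change -0.60, adjusted p = 0.00188), and under library totals alone it missed the threshold (-0.31, adjusted p = 0.0266). By scaling, the number higher was 4 with upper-quartile factors and 8 under library totals alone, where 1 was lower.

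Of the 5 SCF partners of Btrc, 0 passed in edgeR, with a median log2 fold change of -0.03. These were Fbxw11 (0.06, adjusted p = 0.631), Skp1a, Cul1, Rbx1 and Nedd8. At an unadjusted p under 0.05, 1 of them passed, Rbx1 (log2 fold change -0.27), and DESeq2 and limma-voom called 0 at the adjusted threshold. Rbx1 ranked 9236 by p among the 16336 genes tested, so many genes passed at this looser level.

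Of 6 genes for Axin turnover, 2 were higher and 4 neither, with a median log2 fold change of 0.25. Tankyrases mark Axin for destruction by adding poly-ADP-ribose, and both of their genes rose. Tnks was at 69.7, 40.8 and 66.2 CPM in SA and 19.4, 29.7 and 29.9 in WT (log2 fold change 1.16, SE 0.240, adjusted p = 0.00438). SA replicate 2 and WT replicate 1 were the low samples of their groups, as they were for rows above 10 kilobases, and the Tnks row has 6444 bases. With the offset for length, Tnks kept its call (log2 fold change 1.075, adjusted p = 0.00149). The Tnks call was lost without SA replicate 3 (1.07, adjusted p = 0.0112) and without WT replicate 1 (0.97, adjusted p = 0.0138), 2 (1.24, adjusted p = 0.0104) or 3 (1.24, adjusted p = 0.0108). Tnks2 rose from 127 ± 13.9 to 226 ± 45.0 CPM (log2 fold change 0.84, adjusted p = 0.00206) and passed in all 19 other fits.

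Of 11 Dishevelled and GSK3 regulators, 3 were higher and 8 neither, with a median log2 fold change of 0.50. Nkd1, a Wnt-induced antagonist that binds Dishevelled, rose from 24.1 ± 2.32 to 434 ± 92.0 CPM (log2 fold change 4.17, adjusted p = 2e-06). Dact2, another Dishevelled-binding protein, rose from 6.20 ± 2.88 to 40.4 ± 8.42 CPM (log2 fold change 2.71, adjusted p = 0.000295). Dvl3, the third Dishevelled gene, was not called (log2 fold change 0.33, interval -0.07 to 0.72, adjusted p = 0.143), like Dvl1 and Dvl2. Under library totals alone 5 of the 11 were higher.

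Of 11 target genes of β-catenin, 8 were higher, 1 lower and 2 neither, with a median log2 fold change of 3.27. Axin2 and Nkd1 are also on this list. Sp5, a transcription factor gene induced by Wnt signals, was at 0.605 ± 0.263 CPM in WT and 93.9 ± 25.7 in SA (log2 fold change 7.29, adjusted p = 2.1e-06), and Lef1, which encodes a DNA-binding partner of β-catenin, was at 0.624 ± 0.207 and 62.5 ± 14.4 (6.66, adjusted p = 1.8e-06). Lgr5, a receptor gene for R-spondins that is a target in intestinal stem cells, fell from 42.3 ± 4.14 to 22.3 ± 1.98 CPM (-0.93, adjusted p = 0.000342). The 2 that passed in neither direction were Ccnd1 (0.45, adjusted p = 0.0672) and Myc (-0.29, adjusted p = 0.0282). The genes of the lists named here with a call, other than Tnks, Ppp2r5b and Csnk2b, passed in all 19 other fits.

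**Figure D5:**
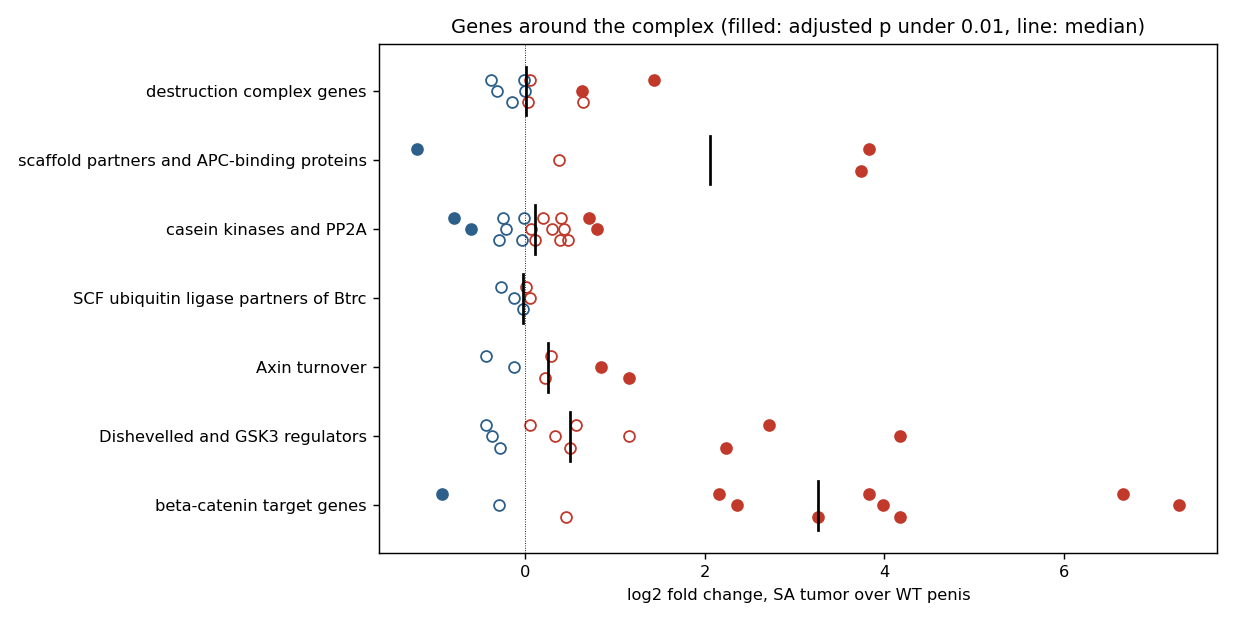
Log2 fold change of SA tumor over WT penis (horizontal axis) for each tested gene of the destruction complex and of 6 lists of genes around it (rows), filled at an adjusted p under 0.01 and open otherwise, with the median of each list as a line and points spread vertically for legibility. The destruction complex has its median at 0.01 with 2 filled points, while the target genes have theirs at 3.27 with 8 filled points on the right and 1 on the left.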

How the data were processed

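RNA of 3 SA tumors and 3 WT penises was sequenced by the authors as stranded paired-end total RNA. Per the labels and the methods of the study, reads were mapped with TopHat to mm10 and counted with HTSeq, after FastQC; versions, the annotation and the strand setting of the counting are not given in the sources used here. The deposited values are read counts, FPKM and TPM for each of 33068 RefSeq transcript rows, with FPKM and TPM scaled by the authors to library total and transcript length. Rows of 1 gene share reads and are not independent, and 4914 symbols had more than 1 row. FPKM was used here only to recover row lengths.

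For each symbol the row with the highest mean count was kept. Counts were tested with edgeR 4.0.16 in R 4.3.3 (TMM factors, filterByExpr with a minimum count of 10, robust quasi-likelihood F-test, SA against WT, no block), with Benjamini-Hochberg adjustment over 16336 genes and a threshold of 0.01 as in the study. Standard errors were taken from the F statistic. Intervals cover the spread between these samples. TPM served for levels between genes and for ratios, which were compared by exact permutation over the 20 assignments of samples. Named genes were the members, Smad4, and in each list the called genes with the 2 largest rises and 2 largest falls, and other list genes were named after their values were seen. Alternatives were other scalings, filters, row choices, DESeq2 1.42.0, limma-voom (limma 3.58.1), a replicate block, leaving out each sample and, added later, length offsets. Members and lists were chosen with earlier results of these data known. Sequences are from GRCm38 with GENCODE M21 and from RefSeq GRCm38.p6. Coordinates on chromosome 18 are not reported here.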

Additional observations from a re-analysis of the deposited data

How the results depend on the processing

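The counts of members higher (2) and lower (0) were the same under every alternative that kept all 6 samples, and with 1 sample left out the number of members higher ranged from 1 to 2, since Ctnnb1 passed in 1 of 6 such fits and Apc in 6 of 6. Scaling by library totals alone gave 5248 genes higher and 1806 lower, against 3283 and 2865, and 25 pathway list genes higher, against 15. It moved the median log2 fold change of all genes from 0.03 to 0.31, by construction without a correction for composition. No called value changed its direction under any alternative run, and the 6 log2 ratios kept their sign in all of theirs. With the replicate number as a block, 2 members were higher and 0 lower, all genes gave 2809 higher and 2446 lower, and Tnks lost its call (log2 fold change 1.14, adjusted p = 0.0135). Same-numbered samples had residual correlations of -0.13, -0.10 and 0.02, with -0.15 to 0.21 for the others. These values showed no pairing by number, but with 3 samples a group they cannot exclude it. A member without a call is not shown to be equal in both groups, and its interval gives the differences the data allow. For Apc2, at 33 to 63 reads outside SA replicate 3, counting error adds to the spread.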
